A study of Gallus gallus with 12 samples.

Results

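The ATP-binding cassette (ABC) genes ABCA1, ABCA3, ABCC1, ABCC4, ABCC13 and ABCE1 were measured on a chicken cDNA array with RNA of HTC cells, a chicken macrophage line, before and after stimulation with Eimeria, the protozoa that cause avian coccidiosis. They were found by symbol in the platform annotation and are 6 of 2253 named genes and of 7905 features in all. Each was represented by 1 cDNA clone printed as 3 spots, which makes 18 of 14718 rows, and each had a value on all 12 arrays once its spots were averaged. The current chicken gene records list all 6 as protein coding. ABCA1 and ABCA3 handle lipids, ABCC1, ABCC4 and ABCC13 belong to the C subfamily, which includes exporters of organic anions, and ABCE1 acts on ribosomes.

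The RNA came from unstimulated HTC cells and from HTC cells stimulated for 4, 18 or 48 h with one of the species E. acervulina, E. maxima and E. tenella, 1 RNA for each species and time. Every array set 2 of these against each other, one in Alexa555 and one in Alexa647, and the 4 arrays of each species closed a loop through its 4 RNA samples. The unstimulated RNA has the same name in the 3 loops, and the labels do not say whether it was 1 RNA or 3. No group of unstimulated cells is labelled with a time of its own, so the effects of stimulation and of hours in culture cannot be told apart.

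ABC transporters bind and hydrolyse ATP on paired nucleotide-binding domains and use that energy to move substrates across a membrane. In macrophages ABCA1 hands cholesterol and phospholipid to apolipoprotein A-I and is induced by the oxysterol-sensing liver X receptors. In mammals ABCC1 exports glutathione conjugates and leukotriene C4, and ABCC4 exports cyclic nucleotides and prostaglandins. ABCE1 has no membrane-spanning part. First described as an inhibitor of RNase L, it splits the ribosome after termination so that the subunits can start again.

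A level below is a least squares estimate from the 4 ratios of a loop, on the log2 scale and relative to the mean of the 4 RNA samples of that loop. A change is the level after stimulation minus the unstimulated level in the same loop, and a constant dye effect of a gene cancels in both. No source used here gives the log base of the deposited ratios or the dye in their numerator. They were read as log2 of Alexa555 over Alexa647. That direction is a likely reading only: every title names the Alexa555 RNA first, and in earlier work on these values chemokine genes then took the signs recalled for the study. The chemokine signs rest on recollection and on these same values, so they are no independent evidence. Under the opposite reading every sign below turns, higher and lower swap, and sizes and tests stay. A mean ± SD is over the cultures of the 3 species (n = 3), which served as replicates of a time. The labels do not say that these cultures were started separately, and the p-values then reflect the spread among these RNA samples alone, which may be technical. Tests ran on the 3700 features with a value on every array, with p-values adjusted over all of them and a threshold of 0.05.

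Log ratios hold no level of a gene, so the macrophage identity of the cells could not be checked against levels of its markers. Of 9 macrophage markers looked for, 7 were tested. LYZ, which encodes lysozyme, alone passed over the mean of the 3 times, with a fall of 0.58, where 6.30% of all features fell. At 4 h LYZ was again the single marker to pass, with a fall of 0.93 (limma, adjusted p = 0.0103), where 5.89% of all features fell. Its change at 48 h was -0.19. CYBB, a subunit of the phagocyte oxidase, alone passed at 48 h, with a fall of 0.89, where 1.86% of all features fell. With any species left out the calls over the mean and at 48 h did not hold, and 0 to 1 of the markers fell at 4 h. CD74, CSF1R, CTSS, MARCO and SPI1 passed at no time and not over the mean, with mean changes between -0.40 and 0.12. Of 18 markers of fibroblasts, epithelium, lymphocytes and erythroid cells, 3 were tested: CDH1 of epithelium and the erythroid globin genes HBA1 and HBBA. None of these passed over the mean, with changes between -0.17 and 0.19. No fibroblast or lymphocyte marker was tested.

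ABCC4 and ABCC1, both of the C subfamily, were the ABC genes that passed the threshold in some contrast. ABCC4 was higher in stimulated cells of every species and time, by 0.99 on the log2 scale (SE 0.21) or 1.98-fold over the mean of the 3 times. ABCC1 was higher at 48 h, by 0.73 ± 0.25 (SD, n = 3) or 1.66-fold. ABCA1 was above its unstimulated level in the E. tenella loop, by only 0.02 at 18 h, and below it in the other loops, with no common change. ABCA3 and ABCC13 had small changes, and the 3 spots of ABCE1 disagreed widely.

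**Figure D1:**
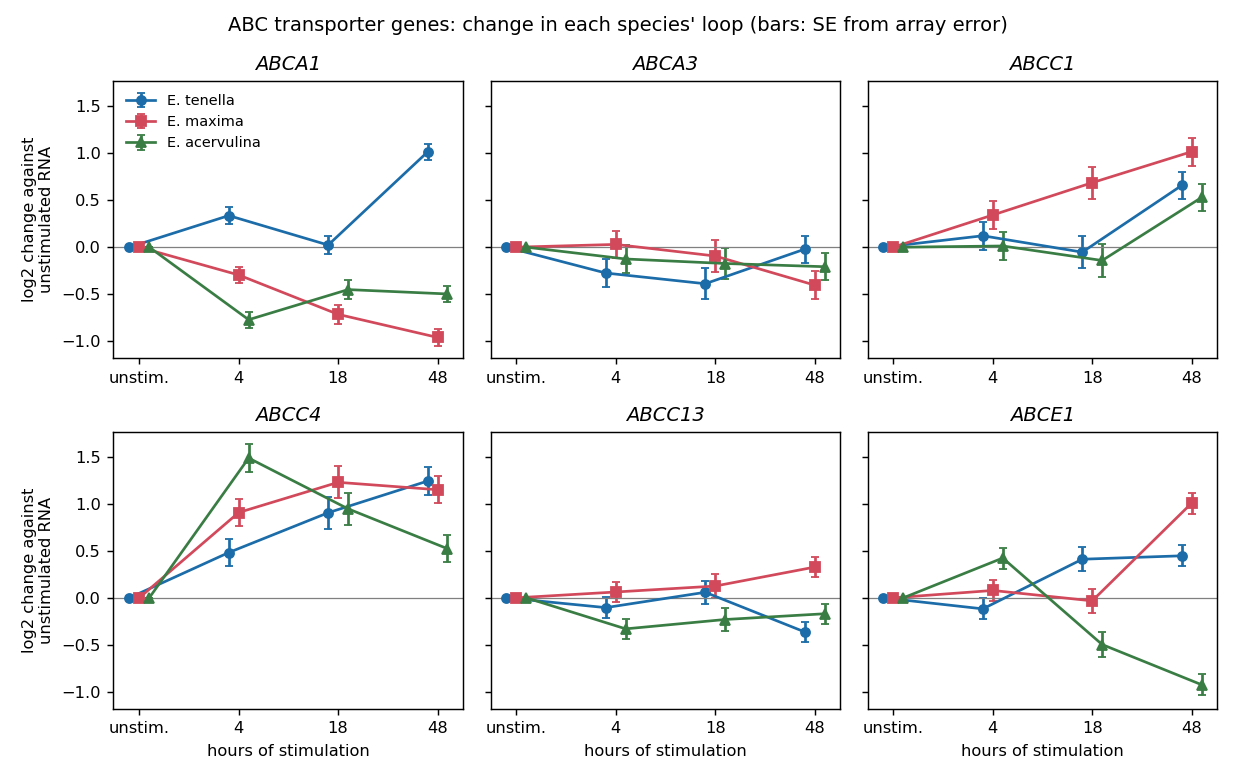
The y axis is the log2 change from unstimulated RNA (read as Alexa555 over Alexa647) and the x axis the hours of stimulation, with 1 line for each Eimeria species. Bars are the SE from array error (0.09 to 0.17) and do not hold the spread between cultures. ABCC4 lies above 0 at all 9 points, while ABCA1 parts between E. tenella and the other loops.

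ABCC4 had its lowest level in the unstimulated RNA of every loop, at -0.74 for E. acervulina, -0.82 for E. maxima and -0.66 for E. tenella. The stimulated levels lay between -0.22 and 0.75, so the groups did not overlap at any time. Stimulated levels on one side of all unstimulated levels at every time were seen for 13.4% of the features tested, and all 9 changes above 0 for 7.16%. The unstimulated RNA lay on 6 arrays and was the lower sample for ABCC4 on all 6, which happened in one direction or the other for 19.6% of features. On the arrays that set it directly against 4 h RNA, the mean deposited ratios were -1.28 in the E. acervulina loop and -0.26 in the E. tenella loop, with the unstimulated RNA in Alexa555. In the E. maxima loop, with the dyes the other way round, the ratio was 1.30.

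The course of ABCC4 differed between the loops. With E. tenella its change was 0.48 at 4 h, 0.91 at 18 h and 1.24 at 48 h. In the E. maxima loop the changes were 0.91, 1.23 and 1.15. The E. acervulina loop had the opposite order to E. tenella, with 1.49 at 4 h, 0.95 at 18 h and 0.52 at 48 h. The means over species were nearly level, at 0.96 ± 0.51, 1.03 ± 0.18 and 0.97 ± 0.39 (SD, n = 3). No difference between stimulated times passed for ABCC4 (limma with Benjamini-Hochberg adjustment, adjusted p from 0.941 to 0.982), and from 4 to 48 h the 95% interval of the common change ran from -0.56 to 0.59. From 4 to 48 h the arrays through 18 h gave -1.39 with E. acervulina, 1.02 with E. maxima and 0.32 with E. tenella. Those through the unstimulated RNA gave -0.54, -0.54 and 1.20 in the same order, so the signs differed with E. maxima. A dye effect enters each path and cancels in their mean only if it is constant.

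ABCC4 rose at 4 h (limma with Benjamini-Hochberg adjustment, adjusted p = 0.0457) and over the mean of the 3 times (adjusted p = 0.0280). It did not pass at 18 h (limma, adjusted p = 0.0690) or at 48 h (adjusted p = 0.0702). Of the 6 genes, 1 passed over the mean, where 10.5% of all features passed and 4.16% of all features passed upward. At 4 h 1 of the 6 passed, against 10.4% of features, 4.51% upward, and at 18 h 0 of the 6 passed, against 1.62%. Non-overlap with the unstimulated levels was common at single times, with 43.0% of features at 4 h and 41.7% at 18 h.

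The call over the mean was lost whenever a species was left out, with limma adjusted p of 0.0995 (E. acervulina), 0.236 (E. maxima) and 0.0655 (E. tenella), while the change stayed between 0.93 and 1.04. The 4 h call was lost in the same way, at adjusted p of 0.148, 0.233 and 0.0672, with changes between 0.70 and 1.20. Both calls use the unstimulated RNA, and if that was 1 sample their p-values are too small. ABCC4 also had a dye effect larger than that of 89.2% of features: its 12 ratios averaged 0.27, and the ratios around its loops summed to 0.86 for E. acervulina, 1.56 for E. maxima and 0.88 for E. tenella rather than to 0.

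ABCC1 stood apart at 48 h, where its levels were 0.43 in the E. acervulina loop, 0.51 in the E. maxima loop and 0.48 in the E. tenella loop. The unstimulated levels were -0.10, -0.51 and -0.18 in the same order. The groups did not overlap at 48 h, as for 35.1% of features, and did overlap at 4 and 18 h. All 6 arrays that held 48 h RNA had it as the higher sample, which was seen in one direction or the other for 10.1% of features. The changes from unstimulated RNA at 4 h were 0.01 in the E. acervulina loop, 0.34 in the E. maxima loop and 0.12 in the E. tenella loop. At 18 h they were -0.14, 0.69 and -0.05 in that order, so the E. maxima culture alone was above its unstimulated level then. By 48 h they were 0.53, 1.02 and 0.66.

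The 48 h change of ABCC1, 0.73, had a 95% interval from 0.40 to 1.07 and passed (limma with Benjamini-Hochberg adjustment, adjusted p = 0.0338). It was the single ABC gene of 6 to pass at 48 h, where 3.59% of features did, 1.73% upward. ABCC1 also rose from 4 to 48 h, by 0.58 (SE 0.15), with changes of 0.52, 0.67 and 0.54 in the E. acervulina, E. maxima and E. tenella loops. The level of the unstimulated RNA is not part of that contrast, but its arrays are: each value is the mean of the path through 18 h and the path through the unstimulated RNA. The path through 18 h alone gave 0.63, 0.35 and 0.45 in the same order, and the other path 0.41, 0.997 and 0.62, both above 0 in every loop and, unlike their mean, open to a dye effect. The limma adjusted p of 0.04998 lay at the threshold, and 7.14% of features passed, 3.30% upward. The change from 18 to 48 h was of like size, 0.57, and above 0 in 3 of 3 loops, but did not pass (limma, adjusted p = 0.260). In that contrast limma called 0% of features, and 501 of 3700 had an unadjusted p under 0.05. From 4 to 18 h 0 of the 6 genes passed, against 0.0270% of features.

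Across all stimulated times ABCC1 passed the limma F test (adjusted p = 0.0453), the single ABC gene to do so where 9.03% of features did. Its mean change of 0.35 did not pass (limma, adjusted p = 0.0873). Leaving out a species ended the 48 h call in each case, with limma adjusted p of 0.119 (E. acervulina), 0.238 (E. maxima) and 0.108 (E. tenella), and ended the call from 4 to 48 h too, at 0.240, 0.101 and 0.163. On the E. maxima array of unstimulated against 48 h RNA, the 2 ABCC1 spots with a value were 0.996 apart. Without the first spot of each ABC gene the 48 h change of ABCC1 was 0.60 and that from 4 to 48 h 0.51, and neither passed (limma, adjusted p = 0.0578 and 0.0663).

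ABCC13 showed no common change. It is listed as protein coding in chicken, whereas the human ABCC13 gene no longer codes for a working transporter. The changes at 4, 18 and 48 h were -0.33, -0.23 and -0.17 in the E. acervulina loop. With E. maxima they were 0.06, 0.13 and 0.33, and with E. tenella -0.10, 0.06 and -0.36. The means were -0.12 ± 0.20 at 4 h, -0.02 ± 0.19 at 18 h and -0.07 ± 0.36 at 48 h (SD, n = 3), each smaller than its SD. Over the 3 times the change was -0.07, with a 95% interval from -0.33 to 0.19 (limma, adjusted p = 0.715). ABCC13 had a dye effect larger than that of 86.6% of features, with a mean of 0.24 over its 12 ratios.

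**Figure D2:**
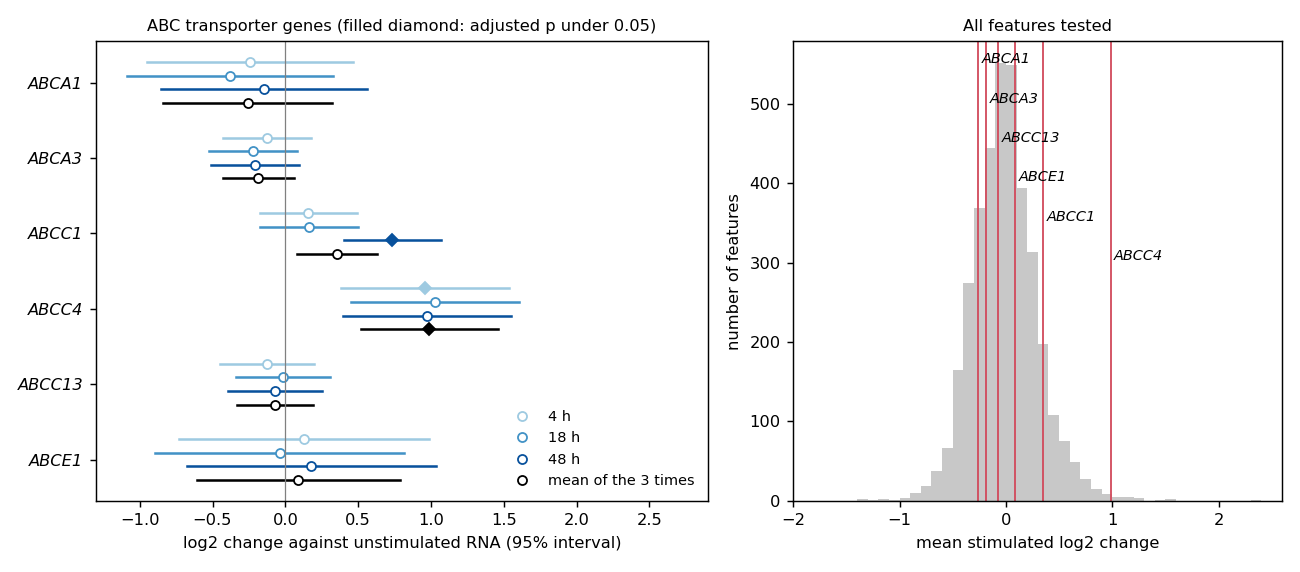
Left, the log2 change of each gene from unstimulated RNA (read as Alexa555 over Alexa647) at 4, 18 and 48 h and over their mean, with the 95% interval of the limma fit; filled diamonds passed the threshold. Right, the number of features (y axis) by mean stimulated log2 change (x axis), with the 6 genes as vertical lines: ABCC4 lies at 0.99, beyond the 99th percentile of 0.81.

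Genes of glutathione synthesis and conjugation, eicosanoid synthesis and organic anion uptake were read beside ABCC1, ABCC4 and ABCC13. The list also held redox and cyclic AMP genes, of which HMOX1, TXNRD1, PDE4D and PRKAR1A were tested. Of 42 looked for, 16 were tested, and over the mean of the 3 times 3 fell and 0 rose, where 6.30% of all features fell. The list median was 0.08, against -0.02 over all features. With features kept at 3 of 4 arrays per loop, or with any species left out, 0 of the list passed over the mean or at 48 h. ALOX5AP, which presents arachidonate to 5-lipoxygenase for leukotriene synthesis, fell by 0.79 (SE 0.19, limma adjusted p = 0.0372). The glutathione transferase genes GSTA3 and GSTO2 fell by 0.55 (SE 0.14) and 0.47 (SE 0.11), with adjusted p = 0.0401 and 0.0342. At 48 h, when ABCC1 was higher, 3 of the 16 fell, again ALOX5AP, GSTA3 and GSTO2, where 1.86% of all features fell. That count was 1 with array weights. At 4 h 2 of the 16 fell, where 5.89% of all features fell. These were ALOX5AP, by 0.85, and SLCO4A1, an uptake carrier of organic anions, by 0.69. From 4 to 48 h 2 rose, where 3.30% of all features rose. HPGDS, the prostaglandin D synthase gene, rose by 1.27 and SLCO4A1 by 0.64, and both contrasts of SLCO4A1 use its 4 h levels. With any species left out at most 1 of the list fell at 4 h and 0 rose from 4 to 48 h. GCLM, the regulatory subunit of an enzyme of glutathione synthesis, had a mean change of 1.11 (SE 0.57) that did not pass (limma, adjusted p = 0.214).

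ABCA1 had opposite courses in the loops. In the E. tenella loop its level was lowest in the unstimulated RNA, at -0.34, and highest at 48 h, at 0.67. In the E. maxima loop it was highest in the unstimulated RNA, at 0.49, and lowest at 48 h, at -0.47. The E. acervulina loop had its highest level in the unstimulated RNA, at 0.43, and its lowest at 4 h, at -0.34. Stimulated and unstimulated levels therefore overlapped at every time once the loops were pooled.

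With E. tenella the changes of ABCA1 were 0.34 at 4 h, 0.02 at 18 h and 1.01 at 48 h. In the E. maxima loop they were -0.30, -0.72 and -0.96, and in that of E. acervulina -0.77, -0.45 and -0.50. A species with all 3 changes above 0 and another with all 3 below was found for 9.49% of features. The spots of ABCA1 on an array and the ratios around each single loop agreed closely, though the loops differed from one another. Its spots differed within an array by an SD of 0.12, against a median of 0.16 over 3023 clones with 3 spots. ABCA1 had 29 of 36 possible spot values, with 1 spot on the E. maxima array of 48 h against 18 h, where spots cannot be compared. The ratios around its loops summed to between -0.09 and -0.01, where the median size over all features was 0.38 to 0.48. At 48 h E. tenella lay above E. maxima by 1.98 and above E. acervulina by 1.51, each with an SE of 0.12 from array error, which sets single RNA samples apart and does not compare conditions. The difference of ABCA1 between 48 h and 4 h was 0.27 in the E. acervulina loop, -0.67 in the E. maxima loop and 0.68 in the E. tenella loop. Along the arrays through 18 h alone, which hold no unstimulated RNA, it was 0.28, -0.68 and 0.72, and the E. maxima value includes the array with 1 spot.

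The common change of ABCA1 was -0.24 ± 0.56 at 4 h, -0.38 ± 0.37 at 18 h and -0.15 ± 1.03 at 48 h (SD, n = 3), and none passed (limma with Benjamini-Hochberg adjustment, adjusted p from 0.468 to 0.800). Over the 3 times it was -0.26, with a 95% interval from -0.84 to 0.32, and leaving out E. tenella moved it to -0.62 (limma, adjusted p = 0.111). A difference between species in the mean change was asked with a limma F test on the 9 changes. It called 0 of the 6 genes, where 3.76% of features passed, with an adjusted p of 0.0880 for ABCA1. The 3 changes in a loop share its unstimulated RNA, so that test takes them as more independent than they are, and its p-values are too small. A limma fit to the 12 levels, which gives the unstimulated RNA its own error, called 0% of features, with an adjusted p of 0.9997 for ABCA1. In that fit the mean change with E. maxima minus that with E. tenella was -1.12, with a 95% interval from -2.38 to 0.15. For E. acervulina minus E. tenella it was -1.03, with an interval from -2.30 to 0.24.

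For ABCC1 the mean changes were 0.13 in the E. acervulina loop, 0.68 in the E. maxima loop and 0.24 in the E. tenella loop (limma F tests between species, adjusted p = 0.0956 on changes and 0.9997 on levels). For ABCC4 they were 0.99, 1.10 and 0.88. The 95% interval of E. maxima minus E. tenella ran from -1.12 to 1.56 for ABCC4, so a 2-fold difference either way lies within it.

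ABCA3 transports phospholipid and is best known in mammals for the lamellar bodies of lung alveolar cells. Its unstimulated levels were 0.13 in the E. acervulina loop, 0.12 in the E. maxima loop and 0.17 in the E. tenella loop, and its stimulated levels lay between -0.29 and 0.15. The unstimulated RNA was the higher sample on all 6 of its arrays, where 19.6% of features had it on one side on all 6. On those against 4 h RNA the mean ratios were near 0. They were 0.03 in the E. acervulina loop, -0.01 in the E. maxima loop, with the dyes the other way round, and 0.04 in the E. tenella loop. In the fitted levels the E. maxima loop was above its unstimulated level at 4 h, by 0.03. With the loops pooled, the stimulated levels lay below the unstimulated levels without overlap at 18 h, as 41.7% of features did on one side or the other. They overlapped at 4 and 48 h. Within its own loop the level was below the unstimulated level in 3 of 3 loops at 18 h and again at 48 h. The changes averaged -0.12 ± 0.15 at 4 h, -0.22 ± 0.15 at 18 h and -0.21 ± 0.19 at 48 h (SD, n = 3). Over the 3 times the change was -0.18, with a 95% interval from -0.43 to 0.06 (limma, adjusted p = 0.274). The range of its levels within a loop averaged 0.34, against a median of 0.49 over all features, 0.92 for ABCA1 and 1.32 for ABCC4.

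Cholesterol handling genes were read beside ABCA1 and ABCA3. Of 47 looked for, 7 were tested, and over the mean 2 fell and 0 rose, where 6.30% of all features fell. With centring, scaling, the filter of 3 arrays per loop or spot medians 1 fell, and with any species left out 0 did. TSPO, a mitochondrial outer membrane protein tied to cholesterol import, fell by 0.76 (SE 0.11, limma adjusted p = 0.0110), and NPC2, which lifts cholesterol out of lysosomes, by 0.44 (SE 0.11, adjusted p = 0.0405). At 4 h the same 2 genes fell, by 1.13 and 0.52, where 5.89% of all features fell. TSPO alone passed at 18 h, with a fall of 0.70, where 1.62% of features passed. At 48 h neither passed, with changes of -0.46 and -0.41. From 4 to 48 h TSPO alone rose, by 0.68, where 3.30% of all features rose, and its 4 h levels enter both contrasts. With any species left out at most 1 of the list fell at 4 h and 0 rose from 4 to 48 h. NR1H3, which encodes a liver X receptor, had a change of -0.15 (SE 0.08, adjusted p = 0.206), and HMGCS1, an early enzyme of cholesterol synthesis, one of 0.61 (SE 0.24, adjusted p = 0.124). The median of the list was -0.15, against -0.02 over all features.

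**Figure D3:**
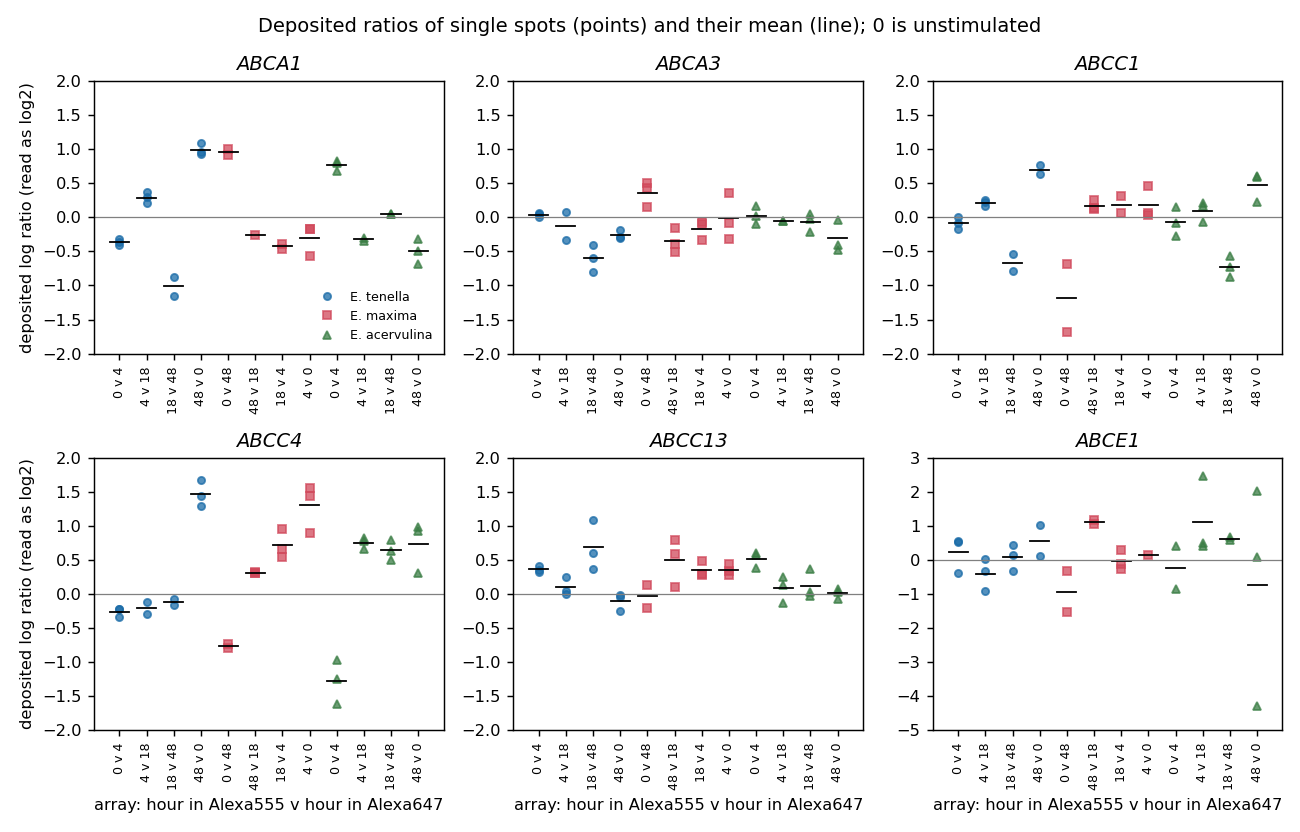
Each point is the deposited log ratio of 1 spot (y axis) and each line the mean of an array; the x axis gives the hour labelled with Alexa555 and that labelled with Alexa647, with 0 for unstimulated RNA. The ABCE1 panel has a wider y axis, and on its last array the spots lie between -4.28 and 2.01.

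The 3 spots of ABCE1 disagreed. Within an array they differed by an SD of 1.26, larger than for 99.5% of clones with 3 spots, against 0.12 to 0.22 for the other 5 genes. On the E. acervulina array of 48 h against unstimulated RNA the spots read -4.28, 0.08 and 2.01. Without that array the SD was 0.64 over 11 arrays, larger than for 95.5% of clones. On that of 4 h against 18 h they lay between 0.40 and 2.46. These spots belong to 1 clone on 1 array, so their spread is within a hybridisation.

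With spots averaged, the changes of ABCE1 at 4, 18 and 48 h were 0.42, -0.50 and -0.93 in the E. acervulina loop. In the E. maxima loop they were 0.08, -0.03 and 1.01, and with E. tenella -0.12, 0.41 and 0.45. With the median of the spots the E. acervulina changes became 0.47, 0.22 and -0.16, while that of E. maxima at 48 h was 0.99. The E. maxima value could hardly move, since a median of 1 or 2 spots is their mean. In that loop the arrays of unstimulated against 48 h and 48 h against 18 h RNA had 2 spots each. That of 4 h against unstimulated RNA had 1. On the array of unstimulated against 48 h RNA the 2 spots read -0.34 and -1.52. No contrast passed for ABCE1, and the mean change was 0.09 with a 95% interval from -0.61 to 0.79 (limma, adjusted p = 0.868). The SE from array error, 0.11 to 0.13, is fitted to spot means and does not hold the disagreement between spots.

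Translation factor genes were read beside ABCE1. Of 48 looked for, 23 were tested, and at 4 h 8 fell and 0 rose, where 5.89% of all features fell. The median of the list was -0.23 at 4 h and 0.03 at 48 h, against -0.03 at both times over all features. ETF1, the release factor that acts before ABCE1, fell by 0.59 at 4 h. The elongation factor genes EEF1B2 and EEF2 fell by 0.79 and 0.71 and the initiation factor gene EIF2S3 by 0.79 (limma, adjusted p from 0.0236 to 0.0365 over these 4). From 4 to 48 h 7 of the 23 rose and 0 fell, where 3.30% of all features rose, among them EIF3H by 1.07 and EIF3E by 0.93. All 7 were among the 8 that fell at 4 h, and both contrasts use the same 4 h levels. At 48 h 0 of the 23 passed against unstimulated RNA, where 3.59% of all features did. With any species left out 0 of the list passed at 4 h, over the mean or from 4 to 48 h, and with centring or the filter of 3 arrays per loop 3 fell at 4 h. Over the mean 1 of the 23 rose and 1 fell, where 4.16% of all features rose and 6.30% fell. Neither gene passed with scaling or that filter. HBS1L, which acts with PELO on stalled ribosomes, rose by 0.48 (SE 0.13, limma adjusted p = 0.0484), and ETF1 fell by 0.45 (SE 0.12, adjusted p = 0.0445).

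**Figure D4:**
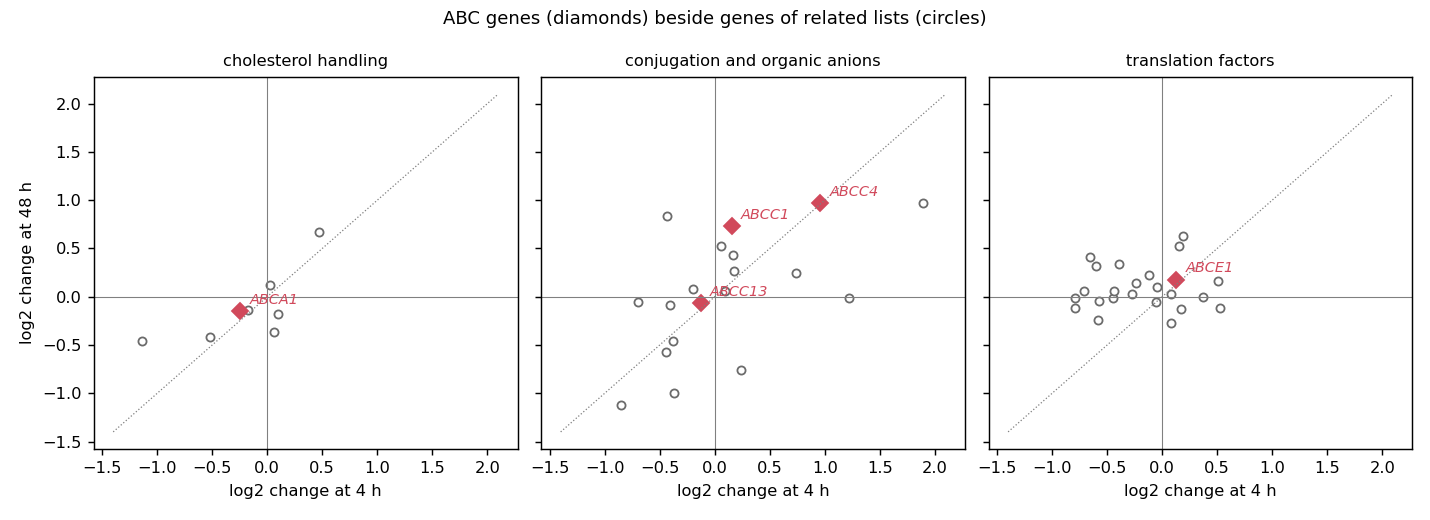
Log2 change from unstimulated RNA (read as Alexa555 over Alexa647) at 4 h (x axis) and 48 h (y axis), mean of 3 species, for 5 of the ABC genes (ABCA3 is not drawn) as diamonds and the genes of the 3 lists as circles; the dotted line marks equal change. Translation factors lie mostly above that line, with medians of -0.23 and 0.03, and ABCC1 lies above it at 0.16 and 0.73.

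The 6 genes had different patterns over the 12 levels, which share arrays and unstimulated RNA within a loop. Pearson r ran from -0.52 for ABCA1 and ABCC13 to 0.63 for ABCA1 and ABCA3, and was 0.46 for ABCC1 and ABCC4. For each gene the 3 named genes with the highest r were looked up. Closest to ABCC4 were LARP1 (r = 0.97), ATP13A3 (0.95) and GOLGA3 (0.94). ABCA1 was closest to AVD, which encodes the egg white protein avidin, PLEKHA1 and IL13RA2 (r = 0.97, 0.97 and 0.92).

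C11orf49, YPEL5 and NRIP1 came closest to ABCC1 (r = 0.93, 0.93 and 0.92), with mean 48 h changes of 0.39, 0.93 and 0.80. RHEB, SMAD7 and TLE3 were nearest to ABCA3 (r from 0.90 to 0.91), and TMPO, DERA and PARP14 to ABCC13 (r from 0.84 to 0.86). UBL3, PQLC2 and RBM26 were nearest to ABCE1 (r from 0.78 to 0.90), whose levels carry the disagreement between spots.

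TAP2, an ABC half-transporter that loads peptides for antigen presentation, was the other ABC gene named on the array, with 3 clones. Its mean change was -0.05 (SE 0.07, limma adjusted p = 0.622). The median mean change of the 6 genes was 0.01, against -0.02 over all features, and 3 of the 6 were above 0.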

How the data were processed

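The authors deposited 1 table with a log ratio for each of 14718 spots on 12 two-colour arrays, here read as log2. The background correction and normalization behind it are not stated in the labels. Array medians lay between -0.04 and 0.12, each array had 12199 to 13938 rows with a value, and the values were used as deposited. A single symbol was given for 9066 rows. Rows of one symbol were averaged, RNA levels were estimated by least squares within each loop, and limma (version 3.58.1, R 4.3.3) was fitted to the 12 levels with a species block and a time factor (6 residual degrees of freedom), with Benjamini-Hochberg adjustment over 3700 features. Array error came from a limma fit to the 12 arrays with a dye term (2 residual degrees of freedom). The number of arrays limits the precision. Scripts were tested on simulated data. Genes, lists and tests were chosen with earlier results of these data known. All 6 ABC genes are described, with the 3 named genes closest to each by r over levels and, of each list, at most the 4 genes with the lowest p that passed over the mean; other list genes, and those named at single times, were chosen after their values were seen. List symbols were matched to the annotation or to synonyms in the gene records. Alternatives were centring, scaling, a filter of 3 arrays per loop, spot medians, each species left out, a fit to array ratios, array weights and, chosen after seeing the data, each spot left out, the species fit to levels and list counts under each setting. Clone sequences and coordinates were not used here.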

Additional observations from a re-analysis of the deposited data

Results flagged for a closer look

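The mean change of ABCA1 was higher with E. tenella than with E. maxima by 1.12 and than with E. acervulina by 1.03 on the log2 scale. All 3 changes with E. tenella lay above 0 and all 3 in each other loop below it, a pattern of opposite signs between a pair of species that 9.49% of features had. With the median of the spots the 18 h change with E. tenella was -0.0007 rather than 0.02, so the signs are not all opposite then. The tests of the difference did not pass: limma gave an adjusted p of 0.0880 on the 9 changes and 0.9997 on the 12 levels. ABCC13 was higher with E. maxima than with E. acervulina by 0.42, again with opposite signs at all 3 times. Its limma F tests gave adjusted p of 0.189 on changes and 0.9997 on levels, and the 95% interval of E. acervulina minus E. maxima ran from -1.09 to 0.26.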

How the results depend on the processing

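Of 352 values of single ABC genes under other settings, 292 kept their sign and their side of the threshold, 24 lost a call, 3 gained one and 33 changed sign. Most of the 352 belong to results that the main fit did not call, so the count of 292 says little about the calls. All 24 lost calls belong to ABCC4 at 4 h and over the mean and to ABCC1 at 48 h and from 4 to 48 h. The causes of these changes were not tested, and some settings also hold fewer samples or spots. Leaving out any species left 0 of the 6 genes passing at 4 h, at 48 h, over the mean, from 4 to 48 h and in the F test over times. It left at most 76 of 3700 features at 4 h, against 385, at most 1 at 18 h, against 60, at most 2 at 48 h, against 133, at most 4 over the mean, against 387, and at most 11 from 4 to 48 h, against 264. List counts fell too, and under the other settings 3 to 9 translation factors fell at 4 h and 4 to 7 rose from 4 to 48 h.

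Requiring 3 of 4 arrays per loop left 0 of the 6 passing at 4 h, at 48 h, over the mean, from 4 to 48 h and in the F test. Scaling left 0 at 4 h, where 284 of 3700 features passed, and leaving out spot 3 also left 0 then. Array weights gave 1 at 18 h (ABCC4), where 509 of 3700 features passed against 60 in the main fit. They gave 0 at 48 h and from 4 to 48 h, where 74 and 204 features passed against 133 and 264. The fit to 12 array ratios gave 2 at 48 h and 2 over the mean, ABCC1 and ABCC4 both times. It passed 485 of 3700 features at 48 h and 673 over the mean, against 133 and 387 in the main fit. Each RNA lies on 2 arrays, which that fit takes as independent, so its p-values may be too small. From 4 to 48 h 0 passed without spot 2 or spot 3 (limma, adjusted p of ABCC1 0.0523 and 0.0564), and in the F test 2 passed with centring and with spot medians. Under the planned settings the mean change of ABCC4 ran from 0.87 to 1.04, with limma adjusted p from 0.00665 to 0.236. The lowest came from the fit to array ratios.

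None of the values that changed sign had passed. Without spot 2 ABCE1 was at -0.077 at 4 h, -0.19 at 48 h and -0.20 over the mean. At 18 h it was 0.13 with spot medians, 0.0014 with array weights and 0.10 without spot 3, and array weights gave -0.062 at 48 h and -0.018 over the mean. ABCC13 at 18 h was 0.0011 with centring and 0.010 without spot 2. ABCC1 from 4 to 18 h was -0.020 with centring, -0.022 with scaling, -0.018 with array weights and -0.031 without spot 1. ABCC4 from 4 to 48 h was -0.038 with array weights and -0.017 without spot 2. With each species left out in turn, ABCA1 ran from -0.53 to 0.020 at 4 h and from -0.73 to 0.26 at 48 h. ABCE1 ran from -0.020 to 0.25 at 4 h, -0.27 to 0.19 at 18 h, -0.24 to 0.73 at 48 h and -0.043 to 0.30 over the mean. ABCC13 ran from -0.086 to 0.092 at 18 h, -0.27 to 0.079 at 48 h and -0.19 to 0.018 over the mean. ABCC1 ran from -0.10 to 0.32 at 18 h and -0.16 to 0.095 from 4 to 18 h. ABCC4 ran from -0.11 to 0.37 from 4 to 18 h, -0.36 to 0.50 from 4 to 48 h and -0.25 to 0.13 from 18 to 48 h. ABCA1 and ABCE1 had no value on every array without spot 1, so no count over the 6 genes was made there, and without it ABCC1 lost its calls at 48 h and from 4 to 48 h.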
